A study of Mus musculus with 8 samples.

Results

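The AP-1 family is described here by 10 of its genes, found by gene symbol in the deposited count table: Fos, Fosb, Fosl2, Jun, Junb, Jund, Atf3, Maff, Mafk and Batf3. All 10 were present among the 38406 symbols of the table, and 9 of them passed the filter on low counts that left 14772 genes for testing; Batf3 did not. The cells were regulatory T cells (Tregs, the CD4 T cells that express Foxp3 and restrain immune responses) sorted from the muscle and the spleen of C57BL/6 males. Mice were either 2 months old (young) or older than 6 months (aged). In all groups, the spleen groups included, tibialis anterior, quadriceps and gastrocnemius had been injured 4 days earlier with cardiotoxin, a venom component that lyses myofibres, at 0.9 µg per muscle, and no group without injury was analysed here. Each library was made from 1500 Tregs that had been sorted in 2 rounds, and there were 2 libraries in each of the 4 groups, young spleen and muscle, aged spleen and muscle. The series calls them biological duplicates without saying whether they came from separate mice or pools, and the p-values reflect the spread of these duplicates alone, which may be technical.

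AP-1 is a dimer of basic leucine zipper proteins. Jun proteins can pair with each other or with Fos, Atf and Batf proteins, whereas Fos proteins need a Jun partner to bind DNA at the palindrome TGACTCA or, for Jun and Atf pairs, TGACGTCA. Many of these genes are immediate early genes: antigen receptor signalling, cytokines and stress switch them on within minutes through MAP kinases, and their RNA is short lived. In T cells AP-1 acts with NFAT to drive effector cytokine genes, in Tregs Foxp3 can take the place of AP-1 beside NFAT, and Batf and Junb have been linked to the effector Tregs of tissues. The small Maf proteins Maff and Mafk have no activation domain of their own and pair with Bach and Nfe2-related factors.

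Promoter windows of 4 members are shown because these genes stand for the patterns described below: Fosb and Atf3 were higher in muscle Tregs, Jun was lower, and Maff changed in opposite directions with age in the 2 tissues. The windows run from 250 bases before to 50 after the start site and were taken from RefSeq on GRCm38.p6. They are chr7:19309996-19310295 (minus strand) for Fosb, chr1:191183284-191183583 (minus strand) for Atf3, chr4:95052173-95052472 (minus strand) for Jun and chr15:79347270-79347569 (plus strand) for the second of 3 start sites listed for Maff. Capitals mark matches, on either strand, to TGACTCA, TGACGTCA, TGACATCA, TTACGTCA, the core TGACG or the CArG box (the serum response factor motif). The core is contained in TGACGTCA and, on the other strand, in TTACGTCA.
Fosb: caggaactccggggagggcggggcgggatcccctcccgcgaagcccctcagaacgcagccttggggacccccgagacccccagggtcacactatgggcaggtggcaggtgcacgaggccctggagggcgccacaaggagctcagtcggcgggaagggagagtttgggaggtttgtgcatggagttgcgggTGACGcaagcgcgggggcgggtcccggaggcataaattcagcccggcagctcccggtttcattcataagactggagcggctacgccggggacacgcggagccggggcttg
Atf3: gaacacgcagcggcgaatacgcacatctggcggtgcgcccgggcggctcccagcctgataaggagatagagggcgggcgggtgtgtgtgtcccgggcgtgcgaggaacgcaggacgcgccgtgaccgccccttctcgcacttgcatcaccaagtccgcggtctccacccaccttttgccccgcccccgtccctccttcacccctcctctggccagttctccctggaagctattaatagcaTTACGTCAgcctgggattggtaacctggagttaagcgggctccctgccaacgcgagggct
Jun: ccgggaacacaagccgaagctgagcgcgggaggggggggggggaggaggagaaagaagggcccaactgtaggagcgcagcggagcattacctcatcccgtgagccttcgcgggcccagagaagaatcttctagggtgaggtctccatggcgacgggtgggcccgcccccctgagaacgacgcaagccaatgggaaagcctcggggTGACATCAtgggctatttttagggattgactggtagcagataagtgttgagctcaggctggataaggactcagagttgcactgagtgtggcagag
Maff: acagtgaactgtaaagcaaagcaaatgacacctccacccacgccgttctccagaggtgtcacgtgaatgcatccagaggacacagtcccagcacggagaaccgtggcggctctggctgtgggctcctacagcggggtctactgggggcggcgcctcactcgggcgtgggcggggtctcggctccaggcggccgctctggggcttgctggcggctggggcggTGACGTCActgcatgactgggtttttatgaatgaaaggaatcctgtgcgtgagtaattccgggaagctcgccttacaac

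In Fosb the core TGACG began at -60 from the start site. Atf3 held TTACGTCA from -10, Jun held TGACATCA from -45, and this Maff window held the full palindrome TGACGTCA from -29. All 10 members had a window, 12 windows in all because of the 3 Maff start sites. Of these windows 7 held TGACG, against 20.8% of 32851 windows of the same length, and 1 held TGACGTCA, against 1.79%. TGACATCA was in 2 of them (3.62% of all windows) and TTACGTCA in 1 (0.499%). TGACTCA, present in 5.2% of all windows, and the CArG box, present in 1.63%, were in 0 of the 12. Sites more than 250 bases before or 50 after a start site were not searched, so a member may have them there. A match describes these letters only. The motifs were chosen after values or sequences were seen, so the shares set beside them are no test. The 7 windows with TGACG belong to 6 members, because Maff has 3 windows. The windows bear on the genes as listed, and for Jund the RefSeq start lay upstream of the start in GENCODE M21. For Atf3, Fosl2 and Batf3 the window lay inside the GENCODE M21 gene, downstream of its start. So did Maff windows 2 (the one shown, from 79347270) and 3, as that plus-strand gene starts at 79346621. The Atf3 window ended at 191183583, while that minus-strand gene reaches 191218039.

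Total counts ranged from 1969982 to 4008622 per library, so a gene at 0 in a library could still have had up to 3 counts, or 0.74 to 1.5 CPM (read counts relative to the TMM-scaled library size, TMM being edgeR's scaling between libraries); this limit covers counting error only. The Treg markers Foxp3, Il2ra, Ctla4, Ikzf2, Tnfrsf18, Cd4, Cd3d, Cd3e and Cd3g were detected in every library, with Foxp3 between 15.4 and 41.5 CPM. The summed level of 16 myeloid markers was 885 CPM in young muscle replicate 1, against 219 in its duplicate, 171 and 185 in aged muscle and 106 to 279 in spleen. In aged muscle replicate 1, 7 of the 16 were at 0, among them Fcer1g, Fcgr3, C1qa, C1qb, S100a8 and S100a9, while Cst3 was at 81.2, Cybb at 36.9, Csf1r at 26.4, Cd68 at 11.5 and Itgam at 11.2 CPM. Csf1r was higher in muscle than in spleen of aged mice (log2 1.43, edgeR adjusted p = 0.033). Markers of muscle fibres, fibroblasts and endothelium summed to 564 CPM in young muscle replicate 1, 258 in replicate 2, 188 and 227 in aged muscle and 159 to 356 for the spleen libraries. In spleen most of that sum was the endothelial gene Pecam1 (316 of 339 CPM in young spleen replicate 1 and 344 of 356 in replicate 2), which T cells can also express. In young muscle Pecam1 was 157 of 564 CPM in replicate 1 and 205 of 258 in replicate 2. In aged muscle it was 169 of 188 CPM in replicate 1 and 119 of 227 in replicate 2. The fibroblast gene Col1a1 was at 150.5 CPM in young muscle replicate 1, 15 in its duplicate and 1.02 to 5.5 in the other 6 libraries. Other fibroblast genes were also raised in aged muscle replicate 2. Dcn was at 30.4, Col3a1 at 28.3, Pdgfra at 13.1 and Col1a2 at 11.8 CPM there. The same genes, in this order, were at 0.372, 0.745, 1.49 and 1.12 CPM in aged muscle replicate 1. In young muscle replicate 1 they were at 3.22, 110.2, 22.9 and 106 CPM.

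The comparison of muscle with spleen Tregs at each age addressed how Tregs in injured muscle differ from those in lymphoid tissue. In young mice 6 of 9 tested members were higher in muscle (Fos, Fosb, Fosl2, Junb, Jund and Atf3) and 2 were lower (Jun and Maff). In aged mice 7 were higher and 1 was lower, because Maff had changed sides. Over all 14772 tested genes 22.3% were called in young mice, 11.4% higher and 10.9% lower in muscle, and 18.8% in aged mice, 9.57% higher and 9.27% lower. Counting instead the genes whose muscle and spleen libraries did not overlap, 7 members were higher and 2 lower in young muscle, where 31.7% and 30% of all tested genes were, and 7 were higher and 1 lower in aged muscle, where 33% and 32.4% were. The median log2 fold change of the 9 members was 1.54 in young and 1.24 in aged mice, beside 0.07 and 0.03 for all tested genes. The members were chosen with earlier results of these data known, so this contrast describes them and is no test of the family. The calls are from edgeR's quasi-likelihood test with Benjamini-Hochberg adjustment over all tested genes at 0.05, as is each adjusted p below. Of 12 tested myeloid markers 6 were also higher in young muscle, and 1 was higher and 1 lower in aged muscle. The part of myeloid cells in the values of the members was not tested. In such bulk samples a change in the number of cells that express a gene and in the RNA per cell cannot be told apart.

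**Figure D1:**
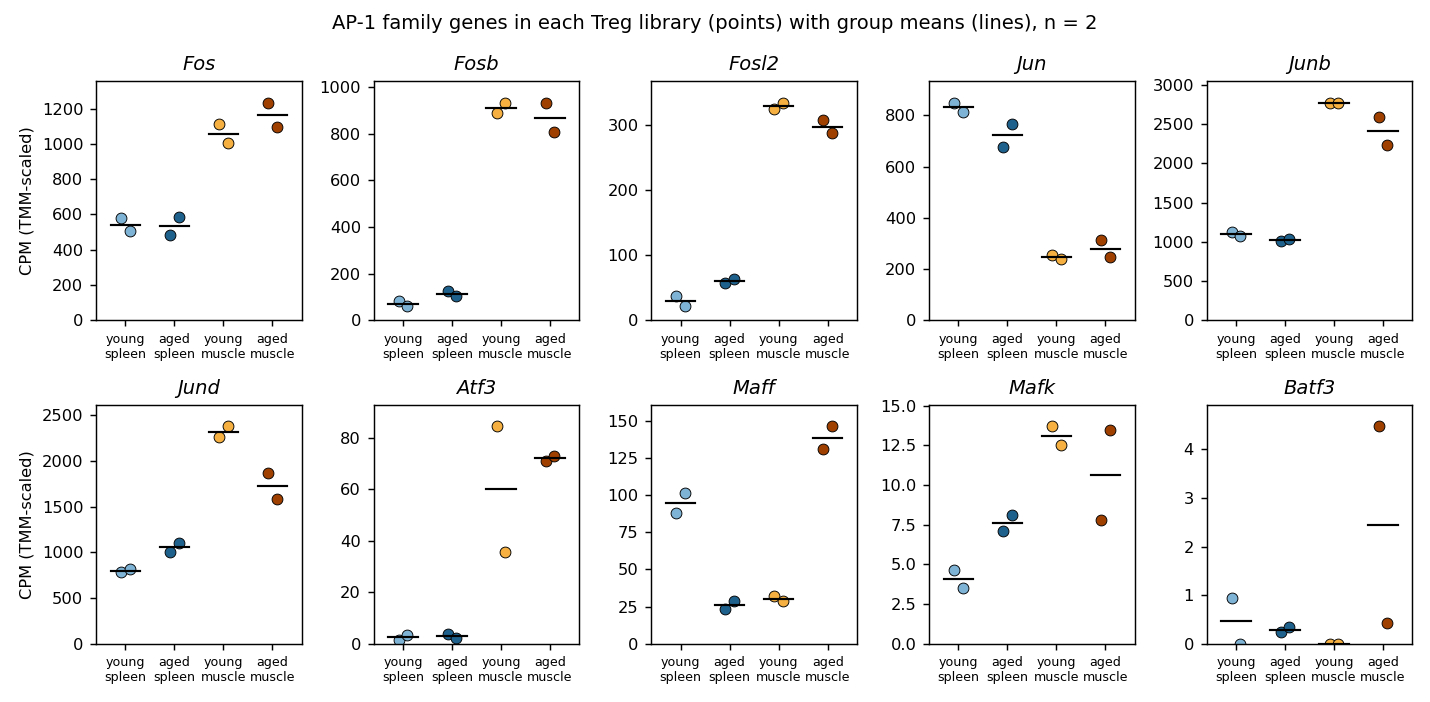
CPM scaled by TMM (vertical axis, linear from 0, a scale for each gene) of the 10 AP-1 genes in the 8 libraries, as points, with the mean of each group of 2 as a line. Fos, Fosb, Fosl2, Junb, Jund and Atf3 are higher in all 4 muscle libraries than in all 4 spleen libraries, Jun is lower in all 4, and Maff is high in young spleen and aged muscle.

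Among the Fos family, the founding member Fos (chromosome 12, 85473890 to 85477273 on GRCm38 in GENCODE M21) was read at 578 and 506 CPM in spleen of young mice, 482 and 585 in spleen of aged mice, 1111 and 1004 in muscle of young mice and 1234 and 1099 in muscle of aged mice. Its level did not separate the ages in either tissue, and all muscle libraries lay above all spleen libraries. The difference between tissues was 1.95-fold in young mice (log2 fold change 0.96 ± 0.15 SE, edgeR adjusted p = 0.00041) and 2.19-fold in aged mice (1.13 ± 0.15, edgeR adjusted p = 0.00016).

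Fosb (chromosome 7, 19302696 to 19310051), which also encodes a shorter splice form without part of the activation domain that these gene counts do not tell apart, differed more. It was read at 80.4 and 59.3 CPM in spleen of young mice, 124 and 104 in spleen of aged mice, 888 and 932 in muscle of young mice and 934 and 807 in muscle of aged mice. Spleen and muscle libraries were far apart, and within muscle the ages overlapped. Muscle was 13.1-fold above spleen in young mice (log2 fold change 3.71 ± 0.19, edgeR adjusted p = 6.8e-09) and 7.61-fold in aged mice (2.93 ± 0.18, edgeR adjusted p = 7.9e-08). In each comparison Fosb had the 9th smallest p of all tested genes.

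Fosl2 (chromosome 5, 32135801 to 32157842), which encodes the Fos-related antigen Fra-2, followed the same order. Its values were 36.5 and 22.1 CPM in spleen of young mice, 57.1 and 62.8 in spleen of aged mice, 326 and 335 in muscle of young mice and 308 and 288 in muscle of aged mice. All 4 groups were apart, in the order young spleen, aged spleen, aged muscle, young muscle. The fold difference between tissues was 11.4 in young mice (log2 3.51 ± 0.22, edgeR adjusted p = 5e-08) and 4.98 in aged mice (log2 2.31 ± 0.20, edgeR adjusted p = 2.3e-06). The remaining family member Fosl1 (Fra-1), not one of the 10, was at 8.62 ± 4.3 CPM in young spleen and 23.7 ± 17 in young muscle (SD, n = 2), a difference that did not pass (edgeR adjusted p = 0.079).

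The 3 Jun genes did not move together. Jun (chromosome 4, 95049034 to 95052222), which encodes the Jun protein that JNK kinases activate, was lower in muscle. It was read at 849.6 and 813 CPM in spleen of young mice, 677 and 768 in spleen of aged mice, 253 and 237 in muscle of young mice and 313 and 245 in muscle of aged mice. Each spleen library exceeded each muscle library by more than the spread within groups. Jun was 3.39-fold lower in young muscle (log2 fold change -1.76 ± 0.16, edgeR adjusted p = 2e-06) and 2.59-fold lower in aged muscle (-1.37 ± 0.16, edgeR adjusted p = 3.5e-05).

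Junb (chromosome 8, 84974484 to 84978718) was higher in muscle instead. Its levels were 1129 and 1074 CPM in spleen of young mice, 1009.6 and 1029 in spleen of aged mice, 2773 and 2764 in muscle of young mice and 2590 and 2232 in muscle of aged mice. The young muscle duplicates were nearly equal, and those of aged muscle lay below them. The fold difference was 2.51 in young mice (log2 1.33 ± 0.14, edgeR adjusted p = 7.9e-06) and 2.37 in aged mice (log2 1.24 ± 0.14, edgeR adjusted p = 2.5e-05).

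Jund (chromosome 8, 70698949 to 70700616), usually described as the steadily expressed member of the family, was at 782 and 816 CPM in spleen of young mice, 1009 and 1105 in spleen of aged mice, 2263 and 2379 in muscle of young mice and 1867 and 1582 in muscle of aged mice. All 4 groups were apart, in the same order as for Fosl2. Muscle exceeded spleen 2.91-fold in young mice (log2 1.54 ± 0.14, edgeR adjusted p = 2.6e-06) and 1.63-fold in aged mice (log2 0.71 ± 0.14, edgeR adjusted p = 0.0032). The call in aged mice ended without aged spleen replicate 1 (log2 0.64, edgeR adjusted p = 0.076; range over the alternatives 3.3e-09 to 0.076). Jun and Jund have 1 annotated transcript each, and it is a single exon.

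**Figure D2:**
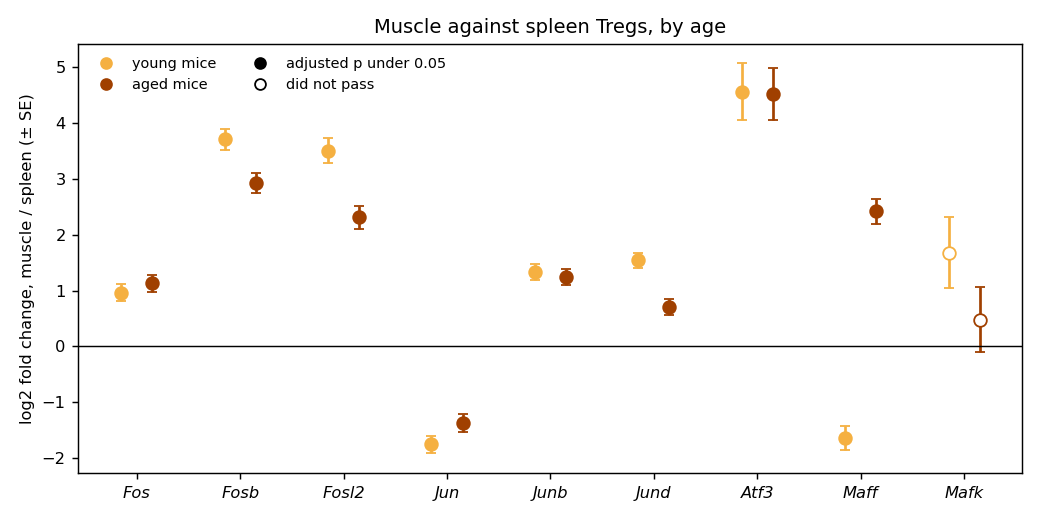
The log2 fold change of muscle over spleen (vertical axis; bars are ± 1 SE of the edgeR fit) for the 9 tested members (horizontal axis) in young and aged mice, with filled points where the adjusted p was under 0.05. Atf3 has the same value at both ages to within its error (4.56 and 4.52), Jun lies below 0 at both, and Maff moves from -1.64 to 2.42.

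The unequal changes altered the make-up of the Jun and Fos reads, a measure within a library that does not depend on scaling. Jun made up 30.8 and 30.1% of the reads of the 3 Jun genes in spleen of young mice, 25.1 and 26.5% in spleen of aged mice, 4.78 and 4.41% in muscle of young mice and 6.56 and 6.04% in muscle of aged mice. Junb took 35.5 to 40.9% of them in the spleen libraries and 51.4 to 55% in the muscle libraries. The share of Jund was 28.3 and 30.2% in young spleen and 39 to 44.2% in muscle, with aged spleen between them at 37.4 and 38.1%. These are shares of reads, not of molecules.

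Within the Fos family, Fos itself held 82.5 and 84.5% of the reads in spleen of young mice, 71.5 and 76.9% in spleen of aged mice and 44 to 49.5% in muscle. Fosb rose in share from 9.9 and 11.5% in spleen of young mice and 13.7 and 18.4% in spleen of aged mice to 36.3 to 40.8% in muscle. Fosl2 held 3.69 and 5.2% in spleen of young mice, 8.25 and 8.48% in spleen of aged mice and 12.4 to 14.7% in muscle. For both families the aged spleen libraries lay between young spleen and muscle in every one of these shares except that of Junb. Summed over the 3 Jun genes the level was 2695 to 2902 CPM in spleen and 4059 to 5381 in muscle, and over the 4 Fos genes 599 to 761 in spleen and 2221 to 2491 in muscle.

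**Figure D3:**
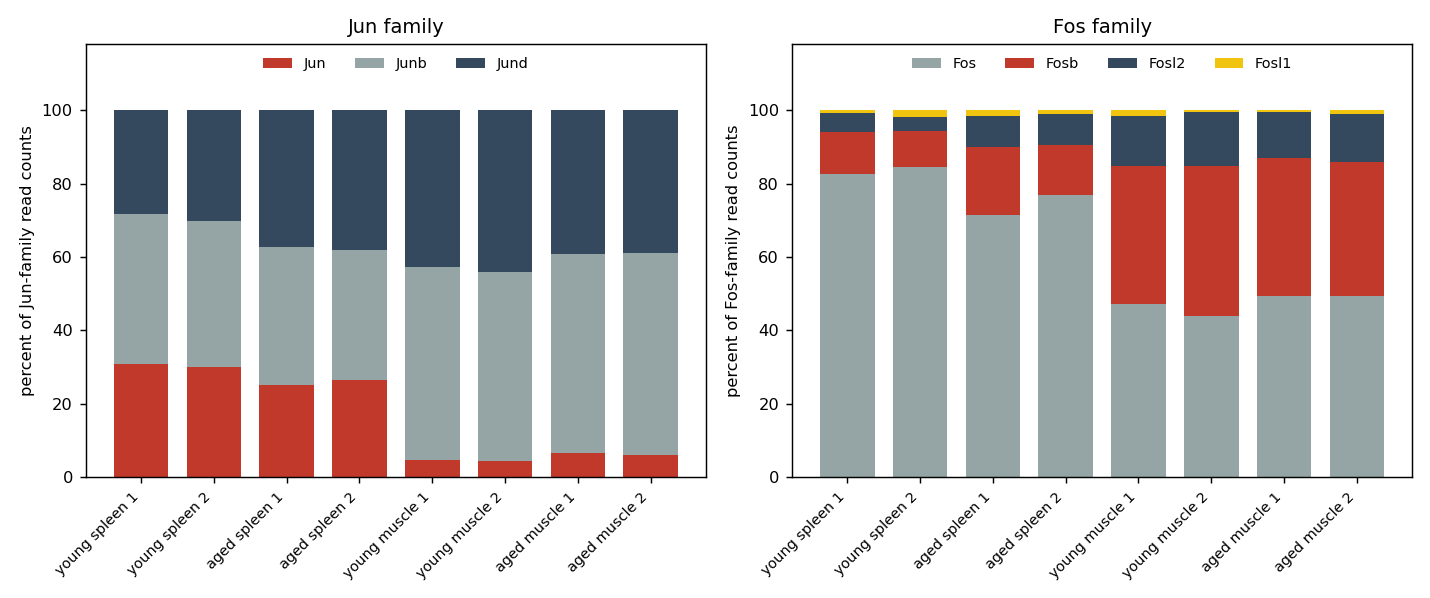
Shares (percent, vertical axis) of the reads of Jun, Junb and Jund (left) and of Fos, Fosb, Fosl2 and Fosl1 (right) in each of the 8 libraries (horizontal axis). Jun shrinks from 25.1 to 30.8% in spleen to 4.41 to 6.56% in muscle, and Fosb grows from 9.9 to 18.4% to 36.3 to 40.8%.

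Per kilobase of annotated exon, Jund and Junb were the highest members in muscle. Jund stood at 1391 CPM per kilobase in young and 1034 in aged muscle, and Junb at 1203 and 1048. Fos followed at 449.8 and 496, Fosb at 146 and 139.5 and Jun at 76.8 and 87.5. Below Jun were Fosl2 at 34.1 and 30.8, Atf3 at 27.9 and 33.5 and Maff at 11.6 and 53.2, whose order differed between the ages, and then Mafk at 3.36 and 2.74. In young spleen Jun, at 261 CPM per kilobase, was above Fos at 230.4. The amplification used need not cover transcripts evenly, so this order is a rough one.

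Atf3 (chromosome 1, 191170296 to 191218039), a stress-induced factor that mostly represses its targets, had the largest fold change of the members. It was read at 1.4 and 3.49 CPM in spleen of young mice, 3.68 and 2.37 in spleen of aged mice, 84.5 and 35.5 in muscle of young mice and 71.1 and 73.2 in muscle of aged mice. The spleen values rested on 3 to 15 counts per library, the muscle values on 71 to 210. Muscle was 23.5-fold above spleen in young mice (log2 4.56 ± 0.51, edgeR adjusted p = 2.3e-05) and 23-fold in aged mice (4.52 ± 0.47, edgeR adjusted p = 1.9e-05). Myeloid cells also express Atf3, and young muscle replicate 1, which had the highest myeloid sum, had the highest Atf3. Without that library the log2 fold change in young mice was 3.79 (edgeR adjusted p = 2.9e-05). The myeloid sums in aged mice were 171 and 185 CPM in muscle and 215 and 279 in spleen. The part of myeloid cells in the Atf3 values was not tested.

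The small Maf gene Maff (chromosome 15, 79346621 to 79359076) crossed. It was read at 87.9 and 101 CPM in spleen of young mice, 23.5 and 28.5 in spleen of aged mice, 31.8 and 28.5 in muscle of young mice and 131 and 146 in muscle of aged mice. Aged spleen and young muscle were both low and met at 28.5, while young spleen and aged muscle were high and apart from each other. In young mice Maff was 3.12-fold lower in muscle (log2 -1.64 ± 0.22, edgeR adjusted p = 8.8e-05). In aged mice it was 5.34-fold higher (log2 2.42 ± 0.22, edgeR adjusted p = 3.6e-06). Of all tested genes 42 (0.284%) were, like Maff, called lower in muscle in young and higher in muscle in aged mice.

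Its relative Mafk (chromosome 5, 139791513 to 139802653) was near the lower limit of what could be compared. It had 10 and 9 counts in spleen of young mice, 29 and 24 in spleen of aged mice, 34 and 25 in muscle of young mice and 21 and 32 in muscle of aged mice, or 3.49 to 13.7 CPM. The log2 difference between tissues was 1.68 ± 0.63 in young mice (edgeR adjusted p = 0.068) and 0.48 ± 0.59 in aged mice (edgeR adjusted p = 0.59), and neither passed. Batf3 (chromosome 1, 191097847 to 191108945), known for its role in cross-presenting dendritic cells, had 2 and 0 counts in spleen of young mice, 1 and 1 in spleen of aged mice, 0 and 0 in muscle of young mice and 12 and 1 in muscle of aged mice. It lies 61350 bases from Atf3 with 1 protein-coding gene between them. Of its 17 counts 12 were in aged muscle replicate 1, against 1 in the duplicate. Fitted without the filter, Batf3 passed in no comparison (edgeR adjusted p from 0.37 to 1).

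Some members overlap other annotated genes on the opposite strand, and without a stated strand setting such reads cannot be assigned with confidence. Jun overlaps the antisense gene Junos, Junb overlaps Prdx2 at its end, Jund overlaps the antisense gene Gm11175, Atf3 overlaps the small RNA gene Gm24748, and Mafk overlaps Tmem184a. Prdx2 was read at 48 to 94.1 CPM, far below Junb, and Gm11175 had 0 to 3 counts. Tmem184a had 0 to 2, and the symbol Junos was not in the count table. If shared reads were dropped from both genes, such low counts do not show how many reads a member lost. Gm11175, at 70699162 to 70700080, lies wholly inside Jund.

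The age comparison addressed how Tregs of older mice differ from those of young mice in each tissue. In muscle 1 of 9 tested members changed: Maff was higher in aged mice, and 0 were lower. Over all tested genes 2.02% were called, 1.14% higher and 0.88% lower; with library-size scaling 66.4% of the calls were higher, against 56.4% here. By non-overlap of libraries 1 member was higher and 3 were lower with age (Fosl2, Junb and Jund), where 21.2% and 20.3% of all tested genes were. Of the 12 myeloid markers 2 were lower with age. The rise of Maff was 4.58-fold, from 30.1 ± 2.3 to 138 ± 10.5 CPM (SD, n = 2; log2 2.20 ± 0.22, edgeR adjusted p = 8.5e-05), the 9th smallest p of all tested genes. Among the others the largest difference was that of Jund, whose CPM was 2321 ± 82 in young mice and 1725 ± 202 in aged mice (log2 -0.43 ± 0.14). It did not pass in edgeR (adjusted p = 0.15), passed in DESeq2 (adjusted p = 0.0078) and passed in edgeR without aged muscle replicate 1 (log2 -0.55, adjusted p = 0.041; range over the alternatives 0.0078 to 0.5). Fos (0.14 ± 0.15), Fosb (-0.06 ± 0.16), Fosl2 (-0.15 ± 0.18), Jun (0.19 ± 0.16), Junb (-0.20 ± 0.14), Atf3 (0.26 ± 0.37) and Mafk (-0.30 ± 0.58) did not pass, given as log2 fold change and SE. The median of the 9 members was -0.06, beside 0.03 for all tested genes.

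In spleen, 2 members rose with age and 1 fell. Of all tested genes 4.24% were called, 2.08% higher and 2.17% lower; 67.4% of the calls were higher with library-size scaling, against 49% here. By non-overlap of libraries 4 members were higher and 3 lower, where 28.8% and 24% of all tested genes were. Maff fell 3.64-fold, from 94.3 ± 9.1 to 26 ± 3.5 CPM (SD, n = 2; log2 -1.86 ± 0.22, edgeR adjusted p = 0.00015). Fosl2 rose 2.06-fold, from 29.3 ± 10.2 to 59.9 ± 4 CPM (log2 1.05 ± 0.22, edgeR adjusted p = 0.012), and Fosb 1.64-fold, from 69.8 ± 15 to 114 ± 14 CPM (log2 0.72 ± 0.18, edgeR adjusted p = 0.036). Both were higher in each aged spleen library than in each young one. Both calls depended on single libraries. That of Fosb ended without any 1 of the 4 spleen libraries (log2 0.51 to 0.95, adjusted p 0.089 to 0.37), and that of Fosl2 ended without replicate 2 of young spleen (log2 0.71, adjusted p = 0.21), replicate 1 of aged spleen (1.11, adjusted p = 0.092) or its replicate 2 (0.98, adjusted p = 0.13).

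Jund had 799 ± 24 CPM in spleen of young mice and 1057 ± 68 in that of aged mice (log2 0.40 ± 0.14), which did not pass in edgeR (adjusted p = 0.14) and did in DESeq2 (adjusted p = 0.019; range over the alternatives 0.0031 to 0.56). Fos (-0.02 ± 0.15), Jun (-0.20 ± 0.15), Junb (-0.11 ± 0.14), Atf3 (0.29 ± 0.63) and Mafk (0.90 ± 0.63) did not pass. Without scaling by TMM, from library sizes alone, the values of Fos and Junb changed sign (0.14 and 0.06), again without passing. The median of the 9 members was 0.29, beside 0.05 for all tested genes.

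**Figure D4:**
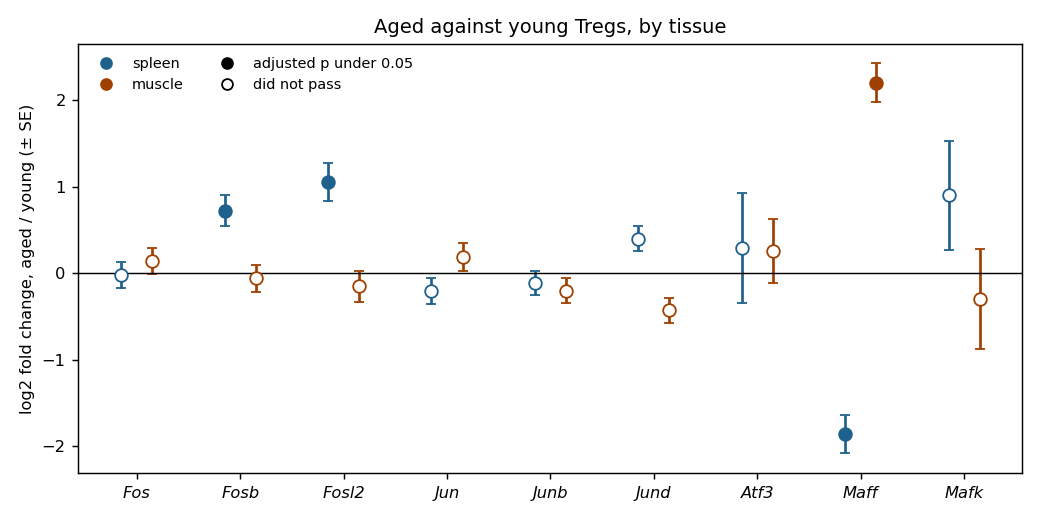
The log2 fold change of aged over young (vertical axis; bars are ± 1 SE of the edgeR fit) for the 9 tested members (horizontal axis) in spleen and muscle, with filled points where the adjusted p was under 0.05. Maff lies at -1.86 in spleen and 2.20 in muscle, while the other 8 members lie between -0.43 and 1.05.

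The difference between the age effects, muscle minus spleen, was tested directly, which is also the test of whether the tissue difference changes with age. It passed for 3 of 9 members, 1 higher and 2 lower, beside 2.52% of all tested genes, 1.35% higher and 1.17% lower. For Maff the difference was 4.06 ± 0.31 on the log2 scale (edgeR adjusted p = 3.1e-06), the 6th smallest p of all tested genes. For Fosl2 it was -1.19 ± 0.28 and for Jund -0.83 ± 0.20 (edgeR adjusted p = 0.037 for each), so both exceeded spleen by less in aged than in young muscle. The call of Fosl2 ended without replicate 2 of young spleen (-0.86), either aged spleen library (-1.26 and -1.13) or either aged muscle library (-1.22 and -1.15), with adjusted p from 0.058 to 0.25. The call of Jund ended without any 1 spleen library (-0.77 to -0.90) or either young muscle library (-0.87 and -0.80), with adjusted p from 0.059 to 0.25. Fosb, at -0.78 ± 0.24, did not pass in edgeR (adjusted p = 0.13) and did in DESeq2 (adjusted p = 0.03). The differences for Fos (0.16 ± 0.22), Jun (0.39 ± 0.22), Junb (-0.09 ± 0.19), Atf3 (-0.03 ± 0.65) and Mafk (-1.20 ± 0.86) did not pass.

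Across ages and tissues 22 tested genes (0.149%) were called higher with age in muscle and lower with age in spleen, and Maff was among them. The genes whose log2 CPM followed Maff most closely over the 8 libraries, looked up after its values were seen, were Dpf1 (Pearson's r = 0.963), Ccdc78 (0.959), Gsdma (0.944) and Pgpep1 (0.94). Dpf1 was at 116 and 109 CPM in spleen of young mice, 23 and 22.7 in spleen of aged mice, 19.3 and 17 in muscle of young mice and 108 and 116 in muscle of aged mice. These are descriptions over 8 libraries that share their 4 groups.

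Most other members followed the tissue. Pearson's r with the mean centred log2 CPM of the 9 tested members, over the 8 libraries, was 0.99 for Fos and Fosb, 0.98 for Atf3, 0.97 for Fosl2 and Junb, 0.91 for Jund, 0.8 for Mafk, 0.22 for Maff and -0.97 for Jun. Each member is part of that mean, so the values describe it only. Outside the members, and among 7775 genes whose mean log2 CPM reached 4, the 8 closest to the mean were Pqlc1, Tob2, Il1rl1, Phlpp1, Hopx, Emb, Spty2d1 and Gadd45b (r from 0.989 to 0.994). Il1rl1, the IL-33 receptor gene, stood at 10.8 to 17.2 CPM in spleen and 111 to 231 in muscle. Gadd45b, a stress and cytokine response gene, was at 87.6 to 134 CPM in spleen and 619 to 796 in muscle. With 4 libraries of each tissue, such an r mostly records a difference between tissues. The genes closest to Jun, also looked up after its values were seen, were Man2c1, Prkca, Plcb2 and Tmem164 (r from 0.994 to 0.995), of which Prkca, a protein kinase C gene, was at 738 to 879 CPM in spleen and 215 to 328 in muscle.

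Other AP-1 and related factors differed less uniformly. Of 13 tested genes of 17 listed, 6 were higher and 2 lower in young muscle, and 3 were higher and 3 lower in aged muscle (median log2 fold change 0.58 and 0.30, beside 0.07 and 0.03 for all tested genes). For this list and those below, the shares of all tested genes were 11.4% higher and 10.9% lower in young muscle. In aged muscle they were 9.57% and 9.27%. Crem, a cAMP-responsive factor, was at 84.8 ± 1 CPM in young spleen and 442 ± 11 in young muscle (SD, n = 2; log2 2.38 ± 0.17, edgeR adjusted p = 2.2e-07). The endoplasmic reticulum stress factor Atf6 was higher in young muscle by 1.60 ± 0.24, and Atf7 differed by -1.11 ± 0.20. Batf, the partner of Jun proteins and Irf4, was at 141 and 151 CPM in spleen of young mice, 297 and 302 in spleen of aged mice, 217 and 209 in muscle of young mice and 208 and 148 in muscle of aged mice. Hence Batf was higher in muscle in young mice (0.55 ± 0.18) and lower in aged mice (-0.75 ± 0.17), and with age it rose in spleen by 1.04 ± 0.18. With age in spleen, Batf and Maf were the 2 of 13 that passed, both higher.

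Of 5 tested partners of the small Maf proteins, the repressor gene Bach2 alone passed, being lower in muscle at both ages. This 1 of 5 is near the 22.3% and 18.8% of all tested genes that were called, and nothing is read from it about the partners. Bach2 was at 622 and 586 CPM in spleen of young mice, 198 and 199.8 in spleen of aged mice, 46.7 and 85.9 in muscle of young mice and 61.1 and 78.7 in muscle of aged mice. Bach2 fell with age in spleen (log2 -1.60 ± 0.22, edgeR adjusted p = 0.00073), where 4.24% of all tested genes were called. With age in muscle its log2 fold change was 0.09 ± 0.24, which did not pass (edgeR adjusted p = 0.9).

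Of 25 tested genes of the MAP kinase pathway, 1 was higher and 3 lower in young muscle, and 2 were higher and 3 lower in aged muscle (medians -0.24 and -0.15). Such counts are near the 22.3% and 18.8% of all tested genes that were called, and nothing is read from them about the pathway. Map2k3, a kinase of p38, was higher in muscle by 1.95 ± 0.25 in young and 1.79 ± 0.24 in aged mice. Prkcq, the protein kinase C of the T cell receptor pathway, was at 812 ± 47 CPM in spleen of young mice, 451 ± 15 in spleen of aged mice, 224 ± 15 in muscle of young mice and 287 ± 41 in muscle of aged mice. It was lower in muscle by both calls and fell with age in spleen (log2 -0.85 ± 0.15, edgeR adjusted p = 0.0044). Other calls included Rasgrp1 (-0.69) and Map3k1 (-0.66) in young mice and Nras (0.63) and Sos2 (-1.09) in aged mice, as log2 fold changes of muscle over spleen.

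Serum response factor, which acts on the Fos promoter, and its cofactors gave 2 higher and 1 lower of 6 in young muscle and 0 higher and 3 lower in aged muscle. The cofactor gene Mkl2 was at 190.3 and 191 CPM in young muscle, 48 and 63 in aged muscle and 51.5 to 69.6 in spleen. In young mice Elk3 (0.52) was also higher in muscle and Elk4 (-0.85) lower, and in aged mice Elk4 (-0.82), Mkl1 (-0.62) and Elk1 (-1.26) were lower. Mkl2 fell with age in muscle (log2 -1.78 ± 0.21, edgeR adjusted p = 0.00023), where the log2 fold change of Fos was 0.14 ± 0.15. A link between Mkl2 and Fos was not tested. Among 5 tested NFAT and IRF partners 1 was higher and 2 lower in muscle at each age. With 6 and 5 genes tested, nothing is read from these counts about either list. Irf4, which binds with Batf and Jun proteins, was at 60.1 to 86.9 CPM in spleen, 445 and 389 in muscle of young mice and 284 and 276 in that of aged mice (log2 2.65 ± 0.18 in young and 1.81 ± 0.17 in aged mice). Nfatc1 was lower by -0.47 ± 0.16 and -1.24 ± 0.15, and Nfatc3 by -0.72 ± 0.18 and -0.56 ± 0.18.

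Of 10 tested genes with known AP-1 sites, of 15 listed, 4 were higher in young muscle (Mmp9, Cd44, Plau and Vim), 3 were higher in aged muscle (Mmp9, Cd44 and Vim) and 0 were lower (medians 1.83 and 0.50). The hyaluronan receptor gene Cd44 was at 90.1 ± 5.2 CPM in young spleen and 368 ± 49 in young muscle (SD, n = 2; log2 2.03 ± 0.19), and the matrix protease gene Mmp9 at 7.33 ± 7.7 and 104 ± 41. The effector cytokine genes Il2 and Csf2 were too low to test, with 0 to 1 and 1 to 4 counts per library. In young muscle several genes of the list were far higher in replicate 1, the library with the highest myeloid sum and Col1a1, than in replicate 2, and the median of 1.83 includes them. Ccnd1 was at 128 and 6.49 CPM, Hmox1 at 51.5 and 6.99, Plaur at 19.3 and 1.5 and Mmp9 at 133 and 75.4, and of these Ccnd1, Hmox1 and Plaur did not pass. Many genes of this list are also expressed by myeloid or stromal cells, whose part in these values was not tested.

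Other immediate early genes were mostly higher in muscle too. Of 26 tested, 16 were higher and 4 lower in young muscle, and 17 were higher and 2 lower in aged muscle (medians 0.65 and 0.85). Nr4a1, an early gene of T cell receptor signalling, was at 223 and 262 CPM in spleen of young mice, 203 and 179.8 in spleen of aged mice, 1207 and 1205 in muscle of young mice and 1204 and 1046 in muscle of aged mice. Gadd45b was higher in young muscle by 3.03 ± 0.17, and Dusp5, a phosphatase that dampens ERK, by 2.23 ± 0.17 in young and 2.79 ± 0.18 in aged muscle. The summed level of the 27 genes was 6224 to 6958 CPM in spleen and 10795 to 13157 in muscle, and that of the 10 AP-1 genes 3393 to 3693 and 6487 to 7744. Dusp2, Btg1, Klf2 and Rhob were the 4 lower in young muscle, and Btg1 and Rhob the 2 lower in aged muscle. With age 1 of 26 rose in muscle (Nr4a2) and 2 fell in spleen (Klf2 and Dusp5), which is near the 2.02% and 4.24% of all tested genes called with age.

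Heat shock genes, another set of genes induced by stress, went the other way. In young muscle 11 of 12 were lower, in aged muscle 7, and 0 were higher (medians -1.21 and -0.90). Hspa1a was at 444 to 625 CPM in spleen and 10.5 to 21.6 in muscle, and its near-identical copy Hspa1b, whose reads the counting may have split, at 422 to 492 and 10.1 to 18.6. Hsph1 was lower in muscle by both calls (log2 -2.29 in young and -2.41 in aged mice), and with age Hspa8, Hsp90aa1 and Dnaja1 fell in spleen and Hspb1 in muscle. The summed level of the 12 genes was 12848 and 12239.7 CPM in spleen of young mice, 8497 and 9064 in spleen of aged mice and 5365 to 7619.9 in muscle. Jun thus had its high values in the same tissue as the heat shock genes, and Fos, Fosb, Fosl2, Junb, Jund and Atf3 in the other. Early and heat shock genes can respond to the handling of cells, whose part in the tissue differences was not tested, and tissue and any difference in preparation between muscle and spleen cannot be told apart.

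**Figure D5:**
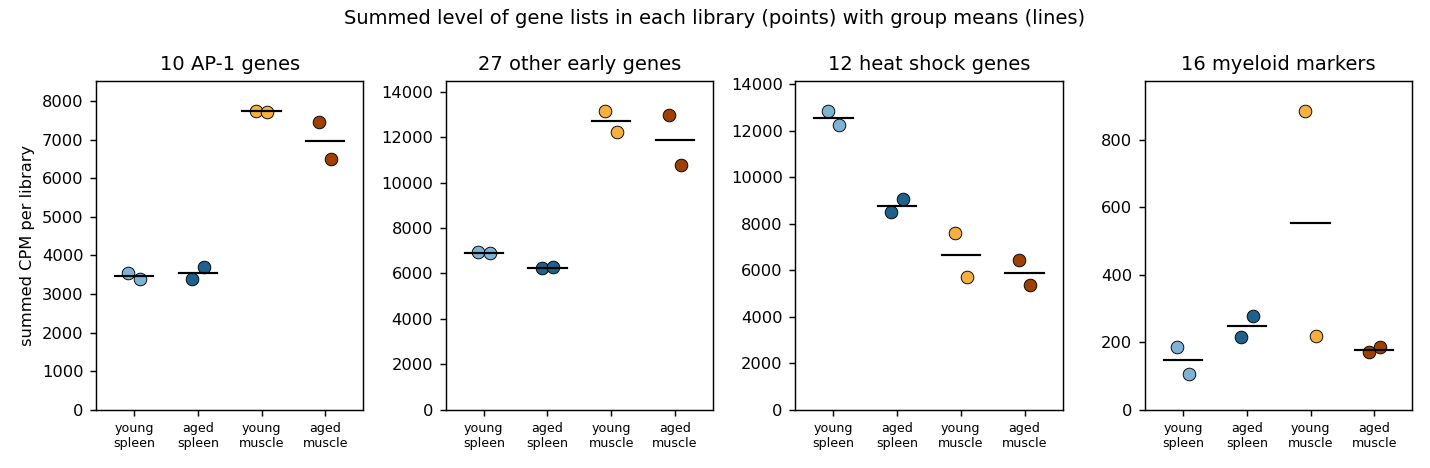
Summed CPM per library (points; vertical axes linear from 0, a scale for each panel) with group means (lines) for the 10 AP-1 genes, 27 other early genes, 12 heat shock genes and 16 myeloid markers. AP-1 and early genes are higher in all muscle libraries, heat shock genes are lower, and the myeloid sum stands out in young muscle replicate 1 at 885 CPM.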

How the data were processed

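Read counts of 8 Treg libraries in 4 groups of 2 were analysed. The values were raw read counts, whole numbers for each gene symbol as the authors deposited them in 1 table, and each column was matched to a sample by its description. TopHat2 and TopHat, Picard, HTSeq, SAMtools 0.1.19 and the build mm10 appear in the submitters' processing notes. The sources used here name neither the annotation nor the strand setting. RNA was amplified by in vitro transcription for 9 hours and 15 PCR cycles, per the labels' protocols, without mention of molecular identifiers, so reads and not molecules were counted.

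In R 4.3.3 with edgeR 4.0.16, genes were kept by filterByExpr (minimum count 10; 14772 of 38406 genes), scaled by TMM and fitted with a robust quasi-likelihood model with 1 coefficient per group (4 residual degrees of freedom; biological coefficient of variation 0.288). Tests were two-sided with Benjamini-Hochberg adjustment over all tested genes. Standard errors were derived as |log2 fold change| / √F. CPM uses the TMM-scaled library size, and logged CPM a prior count of 2. Duplicates differed by more than sampling noise in every group (chi-square per gene 3.83 to 8.61). The fit was also run on counts simulated from its own estimates of the spread, which cannot test those estimates, and nothing is drawn from it here. DESeq2 1.42.0 was an alternative, and others were size factors, library-size scaling, no filter, only the groups compared, a replicate term and leaving out each library.

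The members and gene lists were chosen with earlier results of these data known. Named genes were drawn by a rule that took every member, the 3 genes of smallest p per list and comparison, all that passed where these were 5 or fewer, and the 8 genes closest to the mean of the members. Some genes the rule takes are not reported here. The motifs and the genes closest to Jun and Maff were chosen after values or sequences were seen. Gene positions are from GENCODE M21 (GRCm38, the assembly of mm10).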

Additional observations from a re-analysis of the deposited data

Results flagged for a closer look

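The age effect differed between muscle and spleen, by the test of the difference itself, for 3 AP-1 genes. The difference, muscle minus spleen, was 4.06 for Maff, -1.19 for Fosl2 and -0.83 for Jund on the log2 scale. That of Maff kept its call under each of the 13 alternatives run, with values from 3.92 to 4.20, while those of Fosl2 and Jund ended without single libraries, as given with the results.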

How the results depend on the processing

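Of 23 calls on members, 18 kept their direction and their side of the threshold under each of up to 14 alternatives, and 0 changed sign. The exceptions were Fosb and Fosl2 with age in spleen, Fosl2 and Jund in the difference of age effects, and Jund between tissues in aged mice, whose values are given with the results. For age in muscle 1 member was called; DESeq2 called 2, and leaving out 1 library gave 1 to 2. For age in spleen and for the difference of age effects 3 were called, and leaving out 1 library gave 1 to 4 and 1 to 2; with 1 library fewer a group has a single sample, assumed to vary like the others. Between tissues the counts were 8 without any 1 library in young mice and 7 to 8 in aged mice. Values that did not pass changed sign in a few settings. With library-size scaling these were Fosb with age in muscle (0.05) and Fos (0.14) and Junb (0.06) with age in spleen. With the replicate block it was Atf3 in the difference of age effects (0.11). Without single libraries the ranges reached across 0 for Atf3 (-0.23 to 1.02), Fosb (-0.17 to 0.04) and Mafk (-0.74 to 0.05) with age in muscle, for Fos (-0.17 to 0.11) and Atf3 (-0.17 to 1.12) with age in spleen, and for Atf3 (-0.86 to 0.73) and Junb (-0.18 to 0.02) in the difference of age effects. The cause was not tested.

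Library-size scaling moved the median of all tested genes from 0.05 to 0.21 with age in spleen, from 0.03 to 0.15 with age in muscle and from 0.07 to 0.18 between tissues in young mice, and the share of calls that were higher with age in spleen from 49% to 67.4%. Over all genes the number of calls also depended on the setting: 298 with age in muscle (50 with only the groups compared, 978 without young muscle replicate 2), 627 with age in spleen (141 to 1930), 372 in the difference (137 to 670), 3290 between tissues in young mice (1444 to 3845) and 2783 in aged mice (870 to 3922).

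The labels number the duplicates but do not say that a number pairs libraries. Deviations of same-numbered libraries from their group means correlated at -0.07 to 0.26 between groups, and the fit with the replicate block called 1, 3, 3, 8 and 8 members, the same numbers as without it.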
